A study of Mus musculus with 9 samples.

Results

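A probe set on an expression array is a group of short probes whose signals are summarised as 1 value, and some probe sets match the sequence of several genes at once. The probe sets described here were those whose platform annotation lists 2 or more gene symbols. Probe sets naming Ly6c1 or Ly6c2 (2) and those naming a gene on chromosome X or Y (161) were left out. This gave 1158 of the 34760 probe sets in the deposited value table, against 21640 with 1 symbol and 11799 with none. No measured value entered the choice.

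The arrays hold RNA of 3 sorted cell groups from wild-type C57BL/6 mice, each on 3 arrays. Ly6C-high brain cells, which the labels call MgSCs, and Ly6C-low brain cells, which the labels call bulk microglia, were compared with spleen monocytes, for which the Ly6C label is a dash. Mice were perfused with PBS, brains were digested with collagenase and DNase, and leukocytes were enriched on Percoll before sorting on Ly6C together with MHC class II, F4/80, CD11b and CD45. Treatment, age and sex are not stated for the mice in the labels used here. Nor do the labels say if each array stands for another animal, and p-values then reflect only how far these arrays scatter, in part perhaps technically.

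Genes that arose by duplication often keep nearly the same sequence, so that an array probe binds the transcript of each copy. Processed pseudogenes, overlapping transcription units and microRNAs inside host transcripts give the same ambiguity. Microglia are the resident macrophages of the brain, and monocytes are circulating myeloid cells; both carry several of the duplicated gene families, among them guanylate-binding proteins, paired receptors and Bcl2-related survival proteins. A shared probe set is therefore named below by its number and by all its symbols, and its value is never assigned to 1 of them.

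The promoters of some gene pairs show how alike the genes behind 1 probe set can be, and are printed for pairs on which the results below turn. Sequences are from RefSeq, build GRCm38.p6, and each line is the 130 bases before the start of the gene on the gene's own strand, 5′ to 3′. Oas1a lies on the minus strand at chr5:120907526-120907655 and Oas1g on the minus strand at chr5:120887614-120887743. Tgtp1 lies on the minus strand at chr11:48992247-48992376 and Tgtp2 on the minus strand at chr11:49064213-49064342. Capitals mark the letters GAAA, any 2 bases and GAAA again, the core of the interferon-stimulated response element; 2 overlapping matches are marked in each Oas1 promoter.
Oas1a: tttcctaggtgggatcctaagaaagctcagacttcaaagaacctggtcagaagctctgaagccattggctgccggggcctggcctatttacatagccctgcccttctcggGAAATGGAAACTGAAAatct
Oas1g: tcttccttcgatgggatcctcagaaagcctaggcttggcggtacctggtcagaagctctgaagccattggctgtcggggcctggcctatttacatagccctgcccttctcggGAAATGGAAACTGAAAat
Tgtp1: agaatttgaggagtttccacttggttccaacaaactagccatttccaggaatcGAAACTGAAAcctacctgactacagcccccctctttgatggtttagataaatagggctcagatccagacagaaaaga
Tgtp2: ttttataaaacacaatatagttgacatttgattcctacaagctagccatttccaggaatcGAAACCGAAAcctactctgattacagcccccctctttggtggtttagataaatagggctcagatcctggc

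The same letters, on either strand, stood in 1.35% of the 130-base windows of 32851 RefSeq promoters. Matches began 20 and 14 bases before the start of Oas1a and 18 and 12 bases before that of Oas1g. The match began 77 bases before the start of Tgtp1 and 70 bases before that of Tgtp2. A match is a description of the letters, not of a bound site.

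The other 2 pairs are the inducible heat shock genes Hspa1a (minus strand, chr17:34972157-34972286) and Hspa1b (minus strand, chr17:34959239-34959368), and the alpha-globin genes Hba-a1 (plus strand, chr11:32283542-32283671) and Hba-a2 (plus strand, chr11:32296362-32296491). Capitals mark CCAAT on either strand (ATTGG is CCAAT read on the other strand), letters that stood in 22.4% of all windows of this length.
Hspa1a: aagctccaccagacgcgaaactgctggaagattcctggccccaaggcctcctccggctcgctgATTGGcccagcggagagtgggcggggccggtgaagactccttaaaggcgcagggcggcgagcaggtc
Hspa1b: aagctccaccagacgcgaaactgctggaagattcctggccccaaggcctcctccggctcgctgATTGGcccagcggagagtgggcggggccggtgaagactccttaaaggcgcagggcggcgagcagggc
Hba-a1: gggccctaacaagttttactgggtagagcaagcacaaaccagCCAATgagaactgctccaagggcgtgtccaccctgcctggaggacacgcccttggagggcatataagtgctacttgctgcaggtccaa
Hba-a2: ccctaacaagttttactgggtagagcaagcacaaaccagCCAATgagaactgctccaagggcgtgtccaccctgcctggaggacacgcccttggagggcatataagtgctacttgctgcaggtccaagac

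Over the 250 bases before the start, Hspa1a and Hspa1b were 98.8% identical, Hba-a1 and Hba-a2 98.8%, Oas1a and Oas1g 84.8% and Tgtp1 and Tgtp2 68.4%. The median over the 2507 pairs of genes that share a probe set and have promoter sequences was 62.4%. It was 72% for pairs from probe sets classed below as same stem and 53.2% for those classed as different stems. The second class goes by spelling and also holds related genes. Promoter sequences were matched for 1264 of the 1811 symbols.

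The shared probe sets fell into classes by their names. Of the 1158, 520 listed symbols with the same stem (paralogs such as Bcl2a1a and Bcl2a1b), 267 a named gene with predicted genes, 218 different stems, 93 predicted genes alone and 60 a small RNA. A stem was the letters before the first digit or hyphen, at least 2. The class of different stems thus goes by spelling and also holds related genes, such as C1ra with C1rb and Cts3 with Ctsm. In all, 591 listed 2 symbols, 223 listed 3 and 344 listed 4 or more, up to 20, and 8 repeated 1 symbol. The 1158 probe sets carried 718 distinct lists of symbols. At least 1 gene had a probe set of its own for 716 of them; for the other 442 no listed gene did.

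On the 9 arrays the median deposited value lay between 5.83 and 5.96 on the log2 scale. Marker means by array matched the cell type labels only in part: homeostatic microglia markers lay between 10.72 and 11.18 in Ly6C-low, 7.99 and 8.73 in Ly6C-high and 7.07 and 7.11 in monocyte arrays. Brain endothelium markers lay between 10.46 and 10.97 in Ly6C-high arrays, at 7.39, 6.72 and 5.89 in Ly6C-low arrays and between 5.83 and 5.91 in monocytes. The neutrophil markers of Ly6C-low array 3 (9.80) stood above those of Ly6C-low arrays 1 and 2 (6.85 and 7.29), and the classical monocyte markers of Ly6C-high array 2 (9.14) above those of arrays 1 and 3 (7.26 and 6.27). Neutrophil marker means were higher in monocytes (10.46 to 10.91) than on any brain array. B cell markers lay between 9.10 and 9.46 in monocytes and between 5.69 and 6.73 in both brain groups. Fewer cells of a type and less RNA per cell cannot be told apart in such bulk samples.

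A probe set is called below where its adjusted p, from limma over all 34760 probe sets with Benjamini-Hochberg adjustment, was under 0.05. Each SE below is from the same fit, which pools 1 spread over all 3 groups and is not that of the 2 groups compared. The groups scattered unequally. The median SD of the shared probe sets was 0.33 in Ly6C-high, 0.18 in Ly6C-low and 0.13 in monocyte arrays. Between the brain groups, 75 shared probe sets were called, which is 6.48% of them against 10.6% of all probe sets. Of these, 30 (2.59%) were higher and 45 (3.89%) lower in Ly6C-high cells, beside 3.15% and 7.49% of all. Between Ly6C-high cells and monocytes, 182 were called, 15.7% against 14.4% of all. Here 37 (3.20%) were higher and 145 (12.5%) lower, beside 4.45% and 9.93% of all. Between Ly6C-low cells and monocytes, 147 were called, 12.7% against 9.56% of all. Of them 37 (3.20%) were higher and 110 (9.50%) lower, beside 4.40% and 5.16% of all. Calls of at least 2-fold numbered 36 (3.11%), 92 (7.94%) and 100 (8.64%), beside 7.35%, 9.30% and 6.52% of all. No overlap between the arrays of both groups was found for 21.4%, 47.3% and 46.3% of the shared probe sets, where the shares of all probe sets were 26.7%, 40.6% and 37.0%. With quantile normalisation or cyclic loess in place of the deposited scaling, the higher share of the calls between the brain groups was 60.5% or 65.7% instead of 40.0%, and that against monocytes in Ly6C-high cells 34.2% or 39.3% instead of 20.3%.

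**Figure D1:**
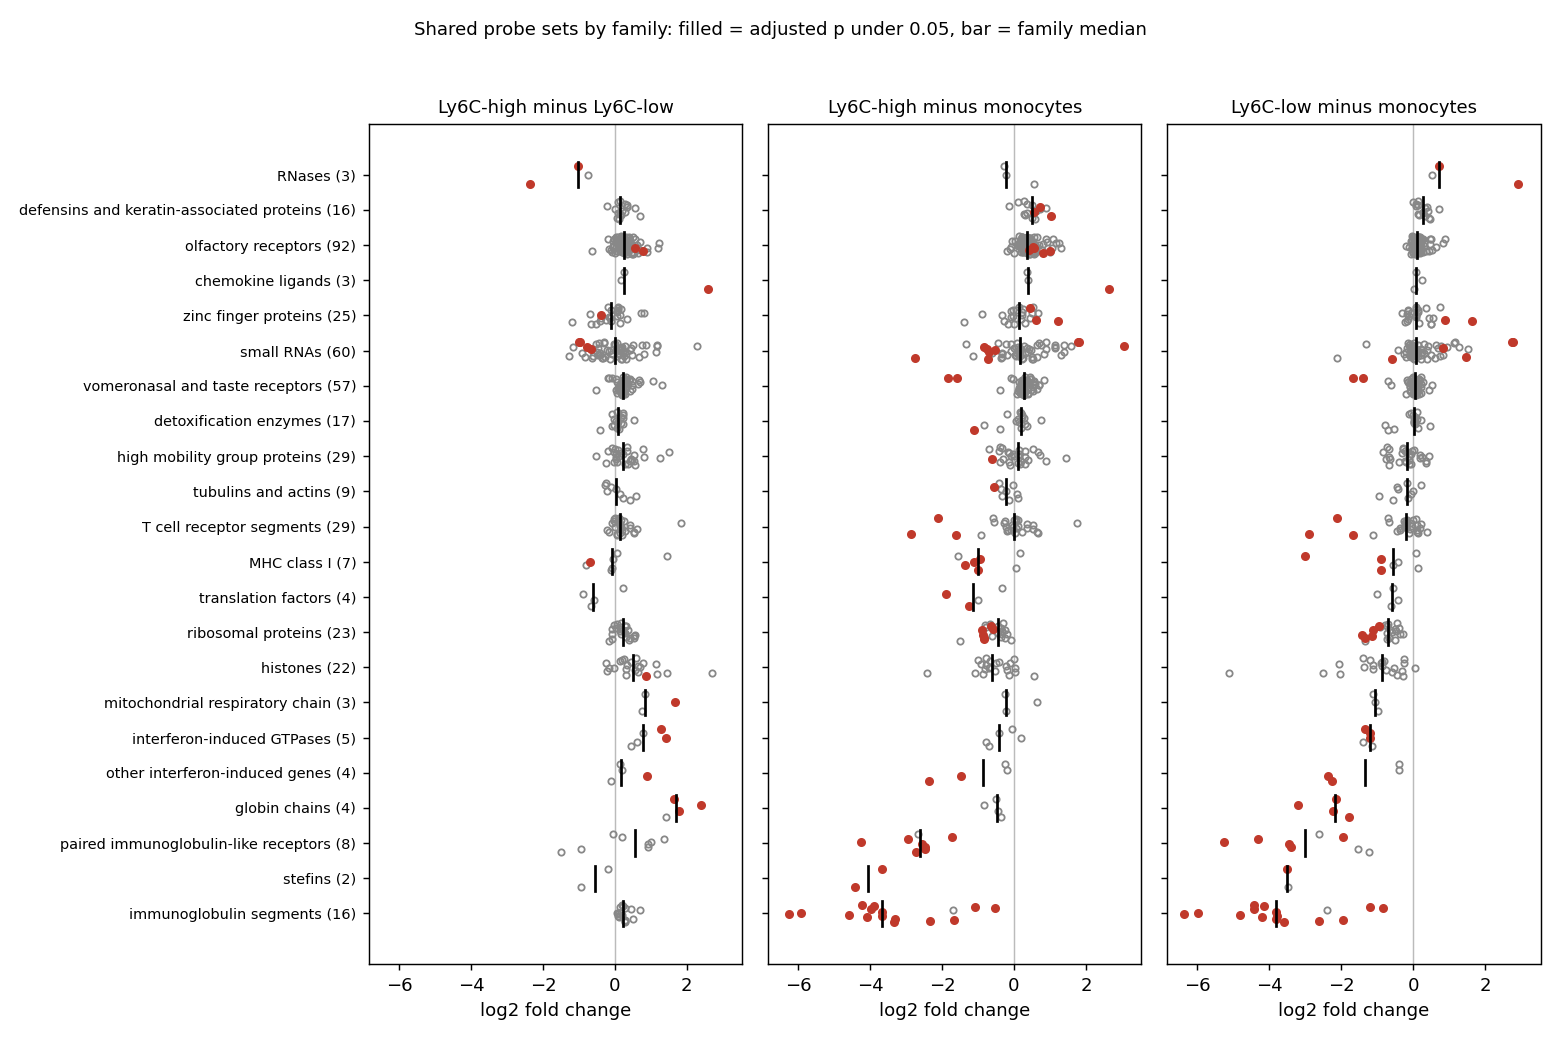
Log2 fold change (x axis, deposited log2 scale) of each shared probe set, by gene family (y axis, number of probe sets in brackets), in the 3 comparisons; filled points passed an adjusted p of 0.05, open points did not, and bars are family medians. Globin chains lay to the right between the brain groups (median 1.71), and immunoglobulin segments far to the left of 0 against monocytes (medians -3.67 and -3.82).

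Probe sets of the haemoglobin chains, which carry oxygen in red cells, were higher in Ly6C-high than in Ly6C-low cells. Probe set 10566254 (Hbb-bt / Hbb-bs / Hbb-b2 / Hbb-b1) read between 10.91 and 11.55 in the Ly6C-high arrays, 9.34, 7.86 and 9.09 in the Ly6C-low arrays and 11.83, 12.35 and 11.73 in monocytes. All Ly6C-low arrays lay below all others, and the Ly6C-high arrays just below the monocytes. The log2 difference between the brain groups was 2.39 ± 0.39 (SE pooled over all 3 groups of 3 arrays, adjusted p = 0.00681). That of Ly6C-low cells from monocytes was -3.20 ± 0.39 (adjusted p = 0.00178). The difference between Ly6C-high cells and monocytes, -0.82 ± 0.39, did not pass (adjusted p = 0.188).

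Probe set 10375058 (Hba-a2 / Hba-a1) read 11.18, 11.82 and 12.52 in Ly6C-high, 10.59, 9.68 and 9.90 in Ly6C-low and 12.32, 12.61 and 11.93 in monocyte arrays. Ly6C-low arrays were again below the rest without overlap, with a difference between the brain groups of 1.78 ± 0.37 (adjusted p = 0.0205). In all, 3 of the 4 globin probe sets were called higher in Ly6C-high than in Ly6C-low cells, none of 4 differed between Ly6C-high cells and monocytes, and 4 of 4 were lower in Ly6C-low cells than in monocytes. The matching shares of all probe sets were 3.15% higher, 14.4% called in either direction and 5.16% lower. Leaving out Ly6C-low array 2 or 3 left 1 of 4 called between the brain groups, and leaving out Ly6C-low array 1 gave 4. Between Ly6C-low cells and monocytes, 2 of 4 remained called without monocyte array 1 or 2. Means of 6 measured erythroid marker genes were 6.58 to 6.80 in Ly6C-high, 6.07 to 6.19 in Ly6C-low and 6.66 to 8.15 in monocyte arrays. Only 1 of the 6 was called higher in Ly6C-high than in Ly6C-low cells, and 0 lower. Tfrc read 10.58, 10.65 and 11.09 in Ly6C-high and 7.62, 8.55 and 8.67 in Ly6C-low arrays. Slc4a1 read 6.28, 6.06 and 6.26 in Ly6C-high and 6.14, 5.98 and 5.95 in Ly6C-low arrays. The part of these markers in the globin values was not tested.

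Among the shared probe sets, the largest difference between the brain groups was that of 10505132 (Pakap / Akap2), genes of an A-kinase anchoring protein that tethers protein kinase A. It read 7.85, 7.96 and 8.05 in Ly6C-high arrays, 5.44, 5.12 and 4.86 in Ly6C-low arrays and 5.19, 5.40 and 5.25 in monocytes. Ly6C-high arrays stood apart from both other groups, which overlapped. All arrays of those groups lay below the median brightness of 5.92, so the probe set met the brightness condition for naming only through the Ly6C-high arrays. The difference was 2.81 ± 0.16 from Ly6C-low cells (adjusted p = 6.65e-05) and 2.68 ± 0.16 from monocytes (adjusted p = 5.38e-05). The probe set that lists Pakap alone differed by -0.06 and 0.32 in the same comparisons and was not called. The endothelium markers above are high on the same 3 arrays, and their part in this difference was not tested.

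Probe set 10448202 (Gm7809 / Tpm4; Tpm4 encodes a tropomyosin of the actin cytoskeleton) read 11.07, 11.15 and 10.92 in Ly6C-high, 9.89, 9.61 and 9.46 in Ly6C-low and 11.51, 11.67 and 11.70 in monocyte arrays. The 3 groups did not overlap at all. Differences were 1.39 ± 0.14 between the brain groups (adjusted p = 6.34e-04) and -1.97 ± 0.14 between Ly6C-low cells and monocytes (adjusted p = 1.20e-04). The probe set listing Tpm4 alone was called in the same directions in all 3 comparisons, with differences of 1.04, -1.15 and -2.18.

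Probe set 10471154 (Gm5424 / Ass1), where Ass1 encodes argininosuccinate synthase of the arginine and urea pathway, read 7.71, 8.81 and 7.04 in Ly6C-high, 6.39, 5.80 and 5.48 in Ly6C-low and 9.57, 9.56 and 9.18 in monocyte arrays. Groups did not overlap, with Ly6C-low lowest and monocytes highest. The difference between Ly6C-low cells and monocytes was -3.54 ± 0.43 (adjusted p = 0.00178). Between the brain groups it was 1.96 ± 0.43 (adjusted p = 0.0246), a call lost without Ly6C-high array 1, Ly6C-low array 2 or Ly6C-low array 3 (adjusted p up to 0.0981 over all alternatives).

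Among chemokine ligands, which steer cell migration, probe set 10504194 (LOC100861978 / Ccl27b / Gm2506 / Gm13306 / Ccl27a) read 4.86, 5.66 and 7.42 in Ly6C-high, 3.69, 2.92 and 3.52 in Ly6C-low and 3.21, 3.77 and 3.03 in monocyte arrays. Ly6C-high arrays were highest but spread over more than 2 log2 units, and only through them did this otherwise dim probe set meet the brightness condition for naming. The differences of 2.60 ± 0.59 and 2.65 ± 0.59 passed (adjusted p = 0.0276 and 0.0227). The first was lost without any 1 Ly6C-low array or without monocyte array 1 (adjusted p up to 0.103 over all alternatives), the second without any 1 monocyte array (adjusted p up to 0.0772 over all alternatives). A second probe set with the same 5 symbols, 10512315, differed by 0.16 and 0.40 and was not called, nor was 10512377, which lists Ccl21 genes.

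Interferon-induced families had their lowest values in Ly6C-low cells in several probe sets and their highest in monocytes in others. Probe set 10356262 (Gm7592 / LOC101055663 / LOC671917 / Gm7609 / Sp100), with Sp100 encoding a nuclear body protein, read 9.30, 8.96 and 9.08 in Ly6C-high, 7.29, 7.40 and 7.37 in Ly6C-low and 10.81, 10.86 and 10.97 in monocyte arrays. The 3 groups were fully apart. Differences were 1.76 ± 0.12 between the brain groups (adjusted p = 1.32e-04), -1.77 ± 0.12 between Ly6C-high cells and monocytes (adjusted p = 8.74e-05) and -3.53 ± 0.12 between Ly6C-low cells and monocytes (adjusted p = 1.05e-05). The probe set listing Sp100 alone gave 1.93, -1.57 and -3.50, all called.

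Of 5 probe sets naming Sp110, a related nuclear body gene, 2 were lower in Ly6C-high than in Ly6C-low cells and 3 were not called between the brain groups. The share of all probe sets lower there was 7.49%. Probe set 10534909 (LOC102638047 / Gm15753 / Sp110) read 8.53, 8.64 and 8.37 in Ly6C-high, 9.11, 9.02 and 9.16 in Ly6C-low and 9.99, 10.30 and 10.39 in monocyte arrays. Here Ly6C-high arrays were the lowest and monocytes the highest, with no overlap. Its differences were -0.59 ± 0.14 between the brain groups (adjusted p = 0.0311), -1.72 ± 0.14 from monocytes in Ly6C-high cells (adjusted p = 1.97e-04) and -1.13 ± 0.14 in Ly6C-low cells (adjusted p = 0.00169). Probe set 10582868, which adds LOC664787 and C130026I21Rik to those symbols, moved alike, with differences of -0.81, -1.69 and -0.88, all called. Probe set 10582874 (Gm15753 / Sp110) was lower than monocytes in both brain groups, by -2.06 and -1.60, but its -0.46 between the brain groups was not called, nor were the -0.10 of 10356248 and the -1.06 of 10356278, which list Sp110 with further genes. Probe set 10356269 (Sp140 / A530032D15Rik), in contrast, was higher in Ly6C-high than in Ly6C-low cells, by 1.27 ± 0.25 (adjusted p = 0.0159).

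The guanylate-binding and T cell-specific GTPases are enzymes induced by interferon that act against intracellular pathogens. Probe set 10385533 (Tgtp2 / Tgtp1) read 8.72, 9.11 and 8.52 in Ly6C-high, 7.85, 7.46 and 6.81 in Ly6C-low and 8.57, 8.75 and 8.43 in monocyte arrays. Ly6C-high and monocyte arrays overlapped, and all Ly6C-low arrays were lower. Its difference between the brain groups was 1.41 ± 0.27 (adjusted p = 0.0144). A second probe set with these symbols, 10385518, differed by 0.61 ± 0.50 and was not called.

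Probe set 10531994 (Gbp11 / Gbp10 / Gbp9 / Gbp6 / Gbp8 / Gbp4) read 7.18, 7.28 and 7.93 in Ly6C-high, 6.54, 6.15 and 5.87 in Ly6C-low and 7.53, 7.28 and 7.75 in monocyte arrays. Again only the Ly6C-low arrays stood apart. The difference between the brain groups was 1.28 ± 0.25 (adjusted p = 0.0157) and that of Ly6C-low cells from monocytes -1.34 ± 0.25 (adjusted p = 0.0138). Both were lost without Ly6C-low array 2 or 3, the second also without monocyte array 1 or 3 (adjusted p up to 0.0724 and 0.0646 over all alternatives). Of its genes with a probe set of their own, Gbp9 was called in both comparisons (1.44 and -1.24), Gbp8 only against monocytes (-1.14), and Gbp4 (1.06 and -1.32) and Gbp11 (0.24 and -0.14) in neither. The part that each gene takes in the shared value was not tested.

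In all, 2 of 5 such GTPase probe sets were higher in Ly6C-high than in Ly6C-low cells, none of 5 differed from monocytes in Ly6C-high cells, and 3 of 5 were lower than monocytes in Ly6C-low cells. The last count fell to 0 without Ly6C-low array 2, Ly6C-low array 3 or monocyte array 1, and to 1 without monocyte array 2 or 3 or with quantile normalisation. The first fell to 1 without Ly6C-low array 2 or 3 and was 3 without Ly6C-high array 2. The matching shares of all probe sets were 3.15% higher, 14.4% called in either direction and 5.16% lower.

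Probe set 10533246 (Oas1a / Oas1g), whose genes make oligoadenylates that switch on RNA decay in infected cells, read 7.29, 7.61 and 6.98 in Ly6C-high, 6.59, 6.48 and 6.15 in Ly6C-low and 8.89, 8.53 and 8.86 in monocyte arrays. The groups were apart in the same order as for Sp100. Against monocytes the differences were -1.46 ± 0.20 (adjusted p = 0.0027) and -2.35 ± 0.20 (adjusted p = 3.12e-04). Between the brain groups it was 0.89 ± 0.20 (adjusted p = 0.0263), a call lost without Ly6C-high array 1 or Ly6C-low array 2 or 3 (adjusted p up to 0.131 over all alternatives). The probe set of Oas1a alone was called against monocytes (-1.25 and -1.81) and not between the brain groups (0.56).

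Probe set 10360382 (Ifi211 / Ifi204), of the interferon-inducible family that senses DNA, was 6.08, 8.29 and 6.17 in Ly6C-high, 5.67, 5.95 and 5.51 in Ly6C-low and 9.80, 9.20 and 9.41 in monocyte arrays. Ly6C-high array 2, the array with the highest classical monocyte markers of its group, was also the highest here, and the part of those markers was not tested. Its differences from monocytes were -2.62 ± 0.54 (adjusted p = 0.0171) and -3.76 ± 0.54 (adjusted p = 0.00403). Counting every probe set with at least 1 interferon-induced gene outside the GTPases and the Ifi200 genes, 4 of 18 were higher and 2 lower in Ly6C-high than in Ly6C-low cells. Of the same 18, 11 were lower than monocytes in Ly6C-high and 12 in Ly6C-low cells, and none was higher. Shares of all probe sets were 3.15% higher and 7.49% lower between the brain groups. Against monocytes, 9.93% and 5.16% of all were lower and 4.45% and 4.40% higher.

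**Figure D2:**
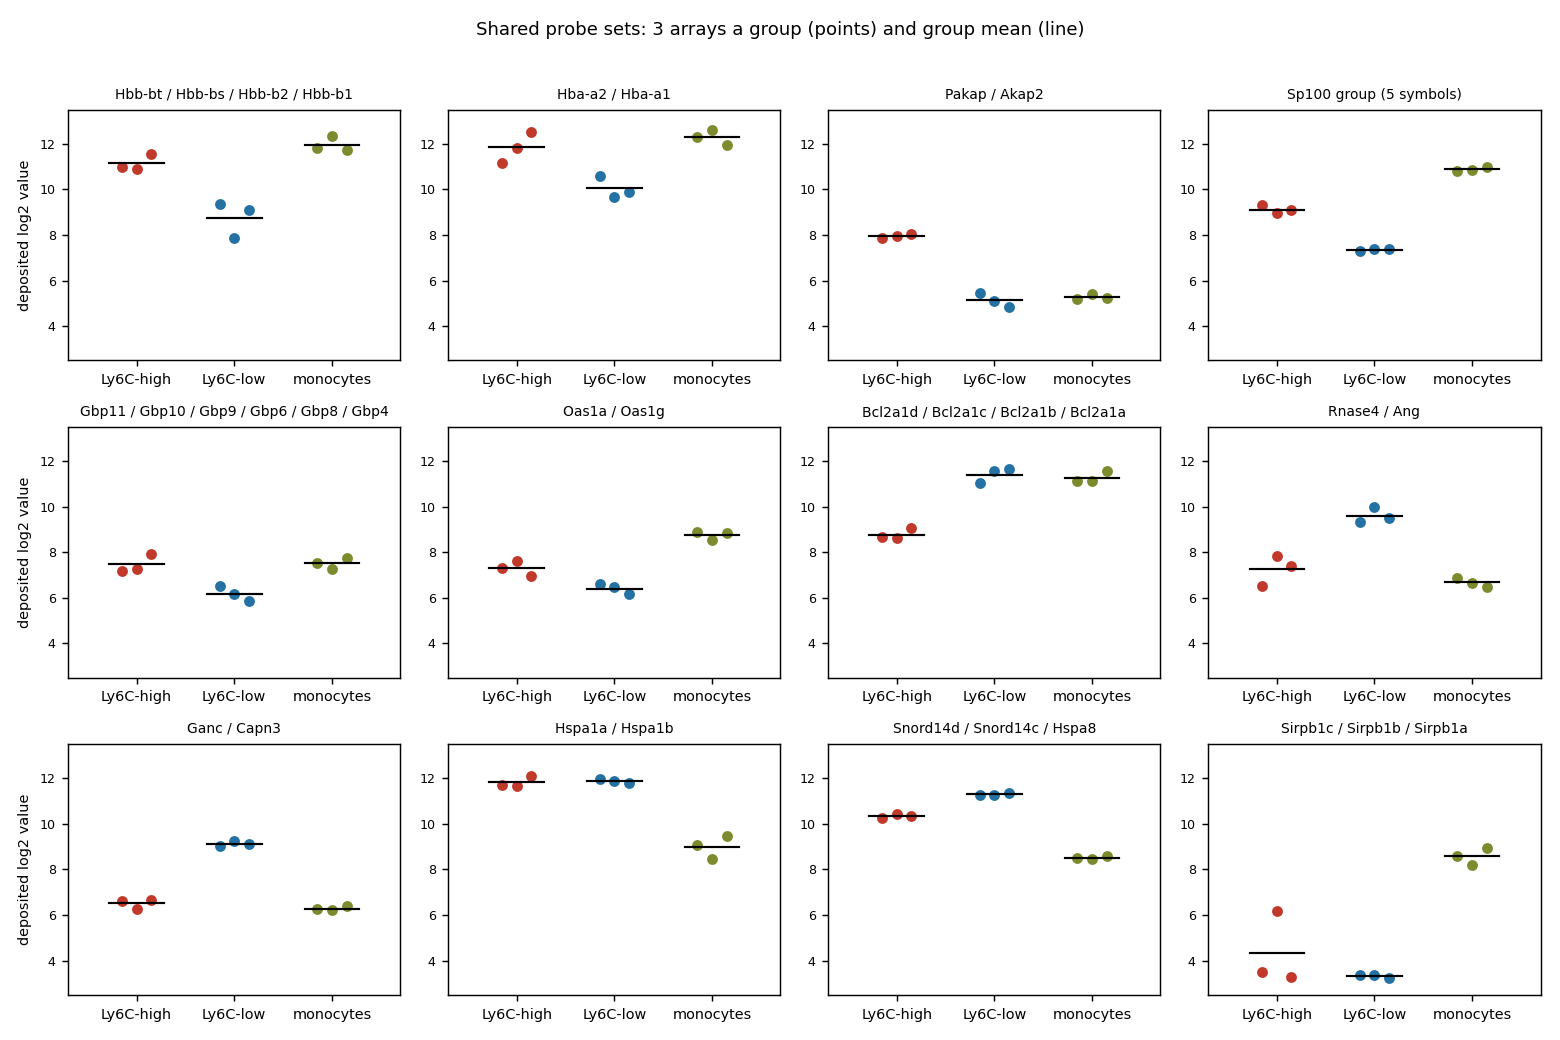
Deposited log2 value (y axis) of 12 shared probe sets on each array, by sorted group (x axis); points are arrays and lines group means. Sp100 group stands for probe set 10356262; Ly6C-high and Ly6C-low arrays did not overlap in 10 of the 12 panels, the exceptions being Hspa1a / Hspa1b and Sirpb1c / Sirpb1b / Sirpb1a.

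Several probe sets of genes known from microglia and myeloid cells were lower in Ly6C-high than in Ly6C-low cells. Probe set 10595633 (Bcl2a1d / Bcl2a1c / Bcl2a1b / Bcl2a1a), genes of a Bcl2-related inhibitor of cell death, read 8.66, 8.61 and 9.05 in Ly6C-high, 11.02, 11.55 and 11.63 in Ly6C-low and 11.11, 11.14 and 11.57 in monocyte arrays. Only Ly6C-high arrays stood apart. The differences were -2.63 ± 0.22 from Ly6C-low cells (adjusted p = 2.92e-04) and -2.50 ± 0.22 from monocytes (adjusted p = 3.03e-04). A second probe set with the same symbols, 10587683, was also lower in both comparisons, as was the probe set of Bcl2a1c alone (-1.92 and -1.93).

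Probe set 10475144 (Ganc / Capn3) pairs an alpha-glucosidase with a calcium-dependent protease of the same locus. It read 6.63, 6.26 and 6.68 in Ly6C-high, 9.05, 9.24 and 9.11 in Ly6C-low and 6.26, 6.21 and 6.39 in monocyte arrays. Ly6C-low arrays stood more than 2 log2 units above all others. The difference between the brain groups was -2.61 ± 0.14 (adjusted p = 5.74e-05) and that of Ly6C-low cells from monocytes 2.85 ± 0.14 (adjusted p = 2.48e-05).

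Probe set 10495107 (Tmigd3 / Adora3), with Adora3 encoding an adenosine receptor, showed the same order. It read 6.88, 6.41 and 7.08 in Ly6C-high, 8.89, 9.52 and 9.38 in Ly6C-low and 6.91, 6.45 and 6.08 in monocyte arrays. Ly6C-high and monocyte arrays overlapped. The differences were -2.47 ± 0.27 (adjusted p = 0.0011) and 2.78 ± 0.27 (adjusted p = 6.02e-04). The probe set of Tmigd3 alone was lower in Ly6C-high cells by a smaller step, -0.47, and its 0.34 against monocytes was not called.

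Probe set 10447629 (Tagap1 / Tagap), genes of a GTPase-activating protein of lymphoid and myeloid cells, read 7.71, 8.32 and 6.91 in Ly6C-high, 9.84, 10.15 and 10.23 in Ly6C-low and 8.25, 8.06 and 8.77 in monocyte arrays. Ly6C-low arrays were highest, without overlap. The difference between the brain groups was -2.43 ± 0.35 (adjusted p = 0.00379), and -3.94 on the probe set of Tagap alone. That of Ly6C-low cells from monocytes, 1.71 ± 0.35 (adjusted p = 0.0185), was lost without Ly6C-low array 2 or 3 or monocyte array 1 or 2 (adjusted p up to 0.0751 over all alternatives).

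Among ribonucleases, probe set 10414537 (Rnase4 / Ang) lists 2 secreted enzymes that RefSeq starts at the same base. It read 6.50, 7.83 and 7.41 in Ly6C-high, 9.31, 9.99 and 9.52 in Ly6C-low and 6.87, 6.67 and 6.49 in monocyte arrays. Ly6C-low arrays were highest without overlap. The differences were -2.36 ± 0.33 between the brain groups (adjusted p = 0.00362) and 2.93 ± 0.33 from monocytes (adjusted p = 0.00126). Probe set 10447675 (Rnaset2a / Rnaset2b), lysosomal ribonucleases, differed by -1.01 ± 0.13 (adjusted p = 0.00246) and 0.73 ± 0.13 (adjusted p = 0.0112), the second lost without Ly6C-low array 3 (adjusted p up to 0.0555 over all alternatives), and its copy 10441539 by -0.74 and 0.54 without a call.

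Their shared promoter (plus strand, chr14:51090947-51091076, GRCm38.p6) is shown since both genes start there, with CCAAT in capitals 55 bases before the start.
Ang and Rnase4: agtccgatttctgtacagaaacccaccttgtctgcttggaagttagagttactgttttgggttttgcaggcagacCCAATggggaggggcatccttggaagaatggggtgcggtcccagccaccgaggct

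Probe set 10414527 (Pnp2 / Pnp), genes of purine nucleoside phosphorylase, read 8.72, 9.18 and 8.85 in Ly6C-high, 9.80, 10.11 and 10.16 in Ly6C-low and 8.30, 8.33 and 8.26 in monocyte arrays. The 3 groups did not overlap. The 3 differences, -1.11, 0.62 and 1.72, were all called, and so were those of the probe set of Pnp alone (-0.94, 0.83 and 1.77). Homeostatic microglia markers run in the same order over the groups, and their part in the values of the probe sets above that were lower in Ly6C-high than in Ly6C-low cells was not tested.

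Probe set 10388958 (Evi2 / Evi2b / Evi2a), of leukocyte membrane proteins, differed by -1.97 ± 0.47 between the brain groups (adjusted p = 0.0342) and by -1.69 ± 0.47 from monocytes (adjusted p = 0.0492). Ly6C-high array 2 stood above arrays 1 and 3 (7.23 and 7.13), and the calls were lost in 9 and 14 of 20 alternative settings, among them each setting without Ly6C-high array 1 or 3, any 1 Ly6C-low array or any 1 monocyte array.

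A set of probe sets lists predicted genes of chromosome 14. The 14 probe sets naming Gm3411, Gm3558 or Gm3696 list between 2 and 20 symbols, 29 in all; 10 of them hold genes of chromosome 14 alone and 4 also genes of chromosome 17. Probe set 10412517, which begins Gm2956 / Gm3411 / Gm3558 and also lists Jpt2, read 8.29, 6.23 and 7.20 in Ly6C-high, 9.73, 9.91 and 10.12 in Ly6C-low and 5.67, 5.60 and 6.21 in monocyte arrays. Its differences were -2.68 ± 0.46 between the brain groups (adjusted p = 0.00851) and 4.09 ± 0.46 between Ly6C-low cells and monocytes (adjusted p = 0.00117). The probe set of Jpt2 alone differed by 0.32 and -0.58 without a call.

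Probe set 10417492 (Gm3558 / Gm3500 / Gm10406 / Gm3373 / Gm5796 / Gm5458) read 8.77, 6.78 and 8.21 in Ly6C-high, 9.53, 9.05 and 9.08 in Ly6C-low and 5.72, 4.97 and 4.86 in monocyte arrays. Both brain groups were above monocytes without overlap, by 2.74 ± 0.48 (adjusted p = 0.00889) and 4.04 ± 0.48 (adjusted p = 0.0016). Over the 14 probe sets, 11 were higher in Ly6C-low cells than in monocytes and none lower, 3 were higher in Ly6C-high cells than in monocytes, and 4 were lower in Ly6C-high than in Ly6C-low cells. Medians of the differences were 2.04, 0.78 and -1.05, where medians over all probe sets were 0.04, 0.08 and 0.05. Shares of all probe sets called in these directions were 4.40%, 4.45% and 7.49%. The 14 share genes and so are not independent measurements.

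**Figure D3:**
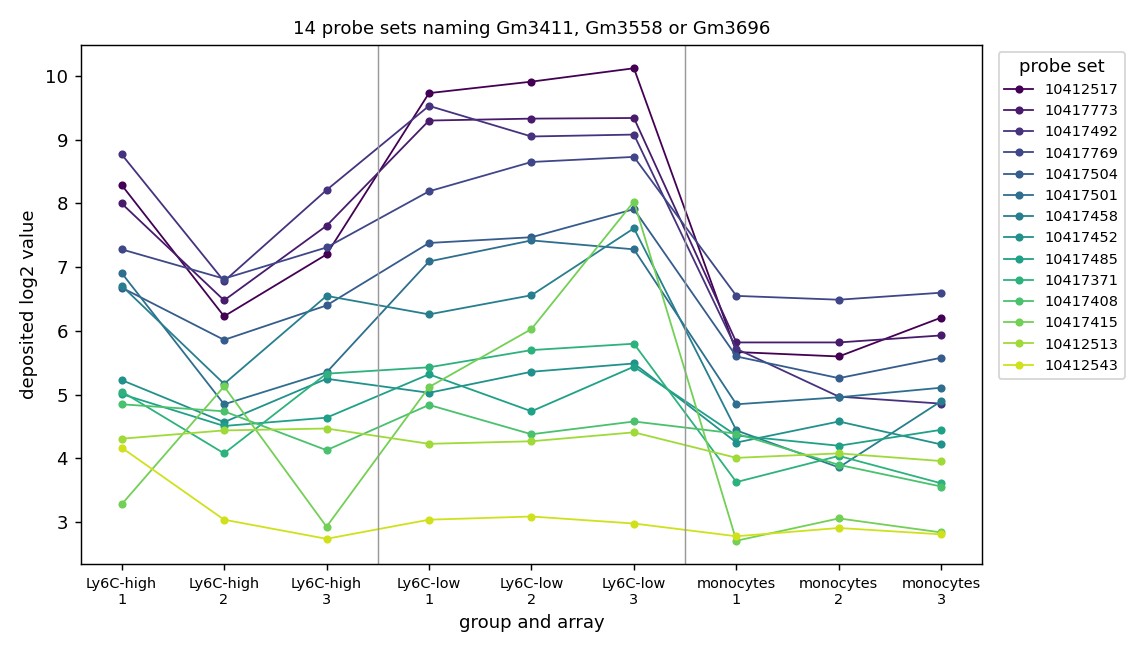
Deposited log2 value (y axis) of the 14 probe sets naming Gm3411, Gm3558 or Gm3696 on each of the 9 arrays (x axis); each line is 1 probe set, and lines join arrays only to aid the eye. Mean values in Ly6C-low arrays were above those in monocytes for all 14 and above those in Ly6C-high arrays for 12.

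Heat shock proteins are chaperones that refold damaged proteins. Of 7 probe sets listing at least 1 such gene, 3 were higher than monocytes in both brain groups, and 1, 10395976 (Gm4247 / Dnajb6), was lower in Ly6C-high cells, by -1.09 (adjusted p = 0.024). The 3 that were higher list Hspa1a and Hspa1b or Hspa8. Of all probe sets, 4.45% and 4.40% were higher than monocytes in Ly6C-high and Ly6C-low cells, and 9.93% were lower in Ly6C-high cells. Probe set 10450367 (Hspa1a / Hspa1b) read 11.70, 11.68 and 12.09 in Ly6C-high, 11.95, 11.90 and 11.81 in Ly6C-low and 9.09, 8.44 and 9.47 in monocyte arrays. The brain groups overlapped and lay more than 2 log2 units above every monocyte array. The differences from monocytes were 2.82 ± 0.25 (adjusted p = 3.47e-04) and 2.89 ± 0.25 (adjusted p = 3.43e-04), and 2.86 and 2.97 on the probe set of Hspa1a alone. Between the brain groups the difference was -0.06 ± 0.25, with no call. Brain and spleen samples differ in tissue, so digestion, tissue and cell type cannot be told apart here.

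Probe set 10584576 (Snord14d / Snord14c / Hspa8) lists 2 small nucleolar RNAs, guides of RNA modification, with the constitutive chaperone gene Hspa8 in whose introns they lie. It read 10.26, 10.41 and 10.33 in Ly6C-high, 11.27, 11.28 and 11.34 in Ly6C-low and 8.50, 8.44 and 8.61 in monocyte arrays. The groups were apart by far more than their spread. The differences were -0.96 ± 0.10 between the brain groups (adjusted p = 7.41e-04), 1.81 ± 0.10 (adjusted p = 4.03e-05) and 2.78 ± 0.10 (adjusted p = 1.33e-05). Its copy 10584578 gave -0.99, 1.77 and 2.76, all called. The probe set of Hspa8 alone gave -0.28 and 0.25 without a call and 0.54 with one.

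Some small RNA probe sets list copies of the RNA alone, and others list a further gene, which can be the host gene of the RNA. Of 60, 4 (6.67%) were called between the brain groups, all lower in Ly6C-high cells. Between Ly6C-high cells and monocytes 9 (15%) were called, 3 of them higher, and between Ly6C-low cells and monocytes 5 (8.33%), 4 of them higher. The called shares of all probe sets were 10.6%, 14.4% and 9.56%. The counts, in either direction, moved to 7 (2 of them higher), 13 and 7 at most and 2, 4 and 2 at least when 1 array was left out; Ly6C-high array 2 gave the first 2 maxima and Ly6C-high array 1 the third, while minima came without Ly6C-low array 3, without any 1 monocyte array, and without Ly6C-low array 2 or monocyte array 3. For the microRNAs discussed next, mature sequences are printed with the seed (bases 2 to 8), which pairs with targets, in capitals; RefSeq gives them on build GRCm38.p6.
mmu-miR-22-5p: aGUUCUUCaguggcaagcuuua
mmu-miR-22-3p: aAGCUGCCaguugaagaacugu
mmu-miR-692: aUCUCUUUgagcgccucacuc

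Mir692-2 on chromosome 4 and Mir692-3 on chromosome 13 give the same mature sequence, and the 3 RNAs have 3 different seeds. Of 60 microRNA symbols in the shared probe sets, 29 had a mature sequence in RefSeq. The array reads the transcript that carries these letters, its host or another listed gene, not the mature microRNA. Whether Ftl1, listed with the Mir692 genes below, is a host of either was not tested.

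Probe set 10563295 (Mir692-3 / Mir692-2 / Ftl1), where Ftl1 encodes the ferritin light chain that stores iron, read 11.20, 11.88 and 11.63 in Ly6C-high, 12.15, 12.39 and 12.46 in Ly6C-low and 12.31, 12.42 and 12.50 in monocyte arrays. Ly6C-high arrays were the lowest. The differences were -0.76 ± 0.18 from Ly6C-low cells (adjusted p = 0.0339) and -0.84 ± 0.18 from monocytes (adjusted p = 0.0203). Probe sets 10508069 and 10428336, with the same symbols, gave -0.67 and -0.75, both called, and -0.49 and -0.69, of which the second was called. The probe set of Ftl1 alone gave -0.95 without a call and -1.31 with one.

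Probe set 10378568 (Mir22hg / Mir22) read 6.44, 8.79 and 6.01 in Ly6C-high, 7.16, 7.55 and 8.41 in Ly6C-low and 9.32, 9.80 and 10.32 in monocyte arrays. Monocytes were highest, and Ly6C-high array 2 stood above arrays 1 and 3. The difference of Ly6C-high cells from monocytes, -2.74 ± 0.70 (adjusted p = 0.0378), was lost in 12 of 20 alternative settings, among them each without Ly6C-high array 1 or 3, any 1 Ly6C-low array or any 1 monocyte array.

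Probe set 10564161 (Snord116l2 / Snord116l1 / Gm26504), of the imprinted Snurf and Snrpn locus, read 7.48, 4.54 and 7.01 in Ly6C-high, 4.12, 3.65 and 4.40 in Ly6C-low and 2.93, 3.03 and 3.86 in monocyte arrays. Ly6C-high array 2 lay near the Ly6C-low arrays, which overlapped the monocytes. The difference of Ly6C-high cells from monocytes was 3.07 ± 0.70 (adjusted p = 0.0253), lost without Ly6C-high array 1 or 3 or any 1 monocyte array (adjusted p up to 0.0874 over all alternatives). It is 1 of 7 probe sets with these symbols; the other 6 were not called in any comparison, and over the 7 the differences of Ly6C-high cells from monocytes ran from 0.28 to 3.07. It was dim in the other groups and met the brightness condition for naming only through the Ly6C-high arrays. Probe set 10564211 (Snurf / Snrpn) of the same locus was higher in Ly6C-high cells than in monocytes by 0.99 ± 0.21 (adjusted p = 0.0187).

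Most probe sets of antibody segments were lower in both brain groups than in spleen monocytes. Of 16 immunoglobulin segment probe sets, 15 were lower in Ly6C-high and 15 in Ly6C-low cells, with medians of -3.67 and -3.82 and ranges of -6.26 to -0.54 and -6.36 to -0.84. Among all probe sets, 9.93% and 5.16% were lower. Probe set 10438405 (Iglv1 / Iglc1 / Iglv2), of the lambda light chain, read 5.82, 5.54 and 5.75 in Ly6C-high, 5.93, 5.18 and 5.68 in Ly6C-low and 9.51, 9.43 and 10.43 in monocyte arrays. The brain groups overlapped. The differences from monocytes were -4.09 ± 0.29 (adjusted p = 1.24e-04) and -4.19 ± 0.29 (adjusted p = 1.22e-04). All 7 measured B cell markers were lower in Ly6C-high cells than in monocytes. In Ly6C-low cells 6 of 7 were lower and 1 was higher. Blnk read 9.78, 10.43 and 10.56 in Ly6C-low and 8.35, 8.76 and 8.77 in monocyte arrays. The part of these markers was not tested.

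Of 29 probe sets of T cell receptor segments, 3 were lower than monocytes in both brain groups: 10407940 and 10403821 (both Trgv2, Trgv4 and Trgv6, of the gamma chain) and 10415015 (Trav7-4 / Trav3n-3 / Trav3-3). This is 10.3% of the family, where 9.93% and 5.16% of all probe sets were lower than monocytes in Ly6C-high and Ly6C-low cells. Probe set 10407940 read 4.46, 4.12 and 4.14, then 4.30, 4.14 and 4.11, and 7.26, 6.84 and 7.16 in Ly6C-high, Ly6C-low and monocyte arrays. The brain groups overlapped and all 3 monocyte arrays were higher, with differences of -2.85 ± 0.15 (adjusted p = 4.03e-05) and -2.90 ± 0.15 (adjusted p = 3.48e-05). T cell marker means were 8.34 to 8.75 in monocytes and 5.50 to 6.07 in brain cells, and their part was not tested. Without Ly6C-high array 2, 3 were lower and 2 higher in Ly6C-high cells than in monocytes, and without monocyte array 2, 5 were lower in Ly6C-low cells. With cyclic loess 5 were lower in each brain group. None of the 4 probe sets of killer cell lectin-like receptors was called.

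MHC genes present antigen to T cells. Probe set 10444236 (H2-DMb2 / H2-DMb1), the class II chaperone that loads peptides, read 6.30, 7.02 and 6.13 in Ly6C-high, up to 7.40 in Ly6C-low and 9.97, 10.21 and 10.63 in monocyte arrays. All monocyte arrays lay more than 2 log2 units above every brain array, and the differences were -3.79 ± 0.27 (adjusted p = 1.15e-04) and -3.02 ± 0.27 (adjusted p = 3.84e-04). MHC class II was among the antibodies of the sort.

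Among 7 class I probe sets, 4 were lower than monocytes in Ly6C-high and 3 in Ly6C-low cells, beside 9.93% and 5.16% of all. Quantile normalisation left 1 and 2 of them called, and the second count was 1 without Ly6C-low array 3 or any 1 monocyte array. Probe set 10450075 (H2-K1 / LOC547349 / H2-D1) was lower in Ly6C-high cells than in monocytes by -1.11 ± 0.16 (adjusted p = 0.00345). Probe set 10385511 (Psme2b / Psme2), of the proteasome activator that helps make class I peptides, was lower by -1.17 ± 0.22 (adjusted p = 0.011), a call lost with cyclic loess (adjusted p = 0.0684, the highest over all alternatives), and the probe set of Psme2 alone by -1.42.

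The Sirpb1 genes encode activating receptors of myeloid cells. Probe set 10497358 (Sirpb1c / Sirpb1b / Sirpb1a) read 3.51, 6.18 and 3.28 in Ly6C-high, 3.36, 3.39 and 3.22 in Ly6C-low and 8.60, 8.21 and 8.92 in monocyte arrays. Ly6C-high array 2 stood between the monocytes and all other brain arrays. The differences from monocytes were -4.25 ± 0.68 (adjusted p = 0.00586) and -5.25 ± 0.68 (adjusted p = 0.00244). Probe sets 10497349, 10497356 and 10497364 with the same symbols were lower too, by -2.46, -2.55 and -2.94 in Ly6C-high and by -3.39, -3.46 and -4.31 in Ly6C-low cells, and Ly6C-high array 2 was the highest Ly6C-high array in each. The high classical monocyte markers of that array were given above, and their part was not tested.

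With 2 probe sets of Cd300ld genes and 2 of the Pirb group, 7 of 8 paired receptor probe sets were lower than monocytes in Ly6C-high and 5 of 8 in Ly6C-low cells. The first count was 4 without monocyte array 2 or 3 and 4 with cyclic loess. The shares of all probe sets called lower were 9.93% and 5.16%.

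Stefins are inhibitors of cysteine proteases that neutrophils carry in quantity. Probe set 10435497 (Stfa2l1 / Stfa2) read 4.77, 4.30 and 4.37 in Ly6C-high, 4.28, 4.01 and 7.97 in Ly6C-low and 9.11, 8.84 and 8.74 in monocyte arrays. Ly6C-low array 3 stood more than 3 log2 units above the rest of its group, and is the array with the highest neutrophil markers of the brain arrays (9.80). Those marker means were higher still in the monocyte arrays, at 10.91, 10.49 and 10.46. The part of these markers was not tested. The difference of Ly6C-high cells from monocytes was -4.42 ± 0.92 (adjusted p = 0.0177; lost without any 1 monocyte array, adjusted p up to 0.0641 over all alternatives), and that of Ly6C-low cells, -3.48 ± 0.92, was not called (adjusted p = 0.0546). Probe set 10439292 (Cstdc6 / Cstdc5 / Stfa1) was lower in both, by -3.68 ± 0.51 (adjusted p = 0.00295) and -3.51 ± 0.51 (adjusted p = 0.00417).

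Ribosomal protein genes have many processed pseudogenes, and 193 probe sets listed at least 1 of them. None of the 193 was higher than monocytes in either brain group, while 55 were lower in Ly6C-high and 37 in Ly6C-low cells, with a median of -0.59 in both. Of all probe sets, 9.93% and 5.16% were lower in these comparisons, and 4.45% and 4.40% higher. The counts rest on the scaling and on single arrays: cyclic loess gave 11 and 21, quantile normalisation 18 and 33, and leaving out Ly6C-high array 2 gave 93 and 56. The second count was 68 without Ly6C-high array 1 and 17 without Ly6C-low array 3. Over all 34760 probe sets, cyclic loess called 2454 and 1822 lower, and quantile normalisation 2226 and 1611. Probe set 10414874 (Rps19-ps3 / Rps19), of a small subunit protein, read 9.36, 9.74 and 9.27 in Ly6C-high, 8.82, 8.95 and 8.92 in Ly6C-low and 10.50, 10.32 and 10.16 in monocyte arrays. The groups did not overlap, and the differences from monocytes were -0.87 ± 0.15 (adjusted p = 0.00866) and -1.43 ± 0.15 (adjusted p = 8.81e-04). With quantile normalisation or cyclic loess the first was not called (adjusted p up to 0.199 over all alternatives).

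Probe sets 10457731 and 10482267 (Rpl35 / Itgam) pair a ribosomal protein with Itgam, the CD11b gene of the sort. They were lower in Ly6C-low cells than in monocytes, by -1.35 (adjusted p = 0.0326) and -0.90 (adjusted p = 0.0356). The probe set of Itgam alone differed by 0.93 in the same comparison without a call, and by -2.82 between the brain groups, where the shared ones differed by 0.64 and 0.33 without a call.

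Some zinc finger genes, a large family of DNA-binding repressors, were higher in brain. Probe set 10479217, which lists Zfp965, Zfp967, Zfp966 and related genes, read 6.97, 6.83 and 6.94 in Ly6C-high, 7.15, 7.28 and 7.05 in Ly6C-low and 6.26, 6.27 and 6.32 in monocyte arrays. Monocytes were below both, with differences of 0.62 ± 0.10 (adjusted p = 0.00636) and 0.88 ± 0.10 (adjusted p = 0.0014). Of 25 zinc finger probe sets, 3 (12%) and 2 (8%) were higher than monocytes in Ly6C-high and Ly6C-low cells, and none was lower. The shares of all probe sets called higher were 4.45% and 4.40%. Without any 1 Ly6C-low array or without monocyte array 2 or 3 the first count was 1, without Ly6C-high array 3 it was 1 with 1 other lower, and without Ly6C-low array 2 or 3 or monocyte array 2 or 3 the second was 1.

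Probe set 10418205 (Plac9b / Gm9780 / Plac9a) was higher in Ly6C-high cells than in monocytes by 1.28 ± 0.25 (adjusted p = 0.0137), lost without monocyte array 2 or 3 (adjusted p up to 0.0542 over all alternatives).

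Families of sensory receptors, which other tissues use, were dim. Of 92 olfactory receptor probe sets, 6 were at or above the median brightness of all probe sets. In Ly6C-high cells 2 (2.17%) were called higher than in Ly6C-low cells and 5 (5.43%) higher than in monocytes, beside 3.15% and 4.45% of all. None was called lower. Leaving out Ly6C-high array 2 made those counts 9 and 20, and they fell to 0 without any 1 Ly6C-low array or monocyte array 3 and without monocyte array 1. The second was at most 3 without Ly6C-high array 1, Ly6C-low array 2 or 3 or monocyte array 2 or 3, and with quantile normalisation or cyclic loess. Of 57 probe sets grouped as vomeronasal and taste receptors, 2 (3.51%) were lower than monocytes in both brain groups, beside 9.93% and 5.16% of all. These 2, 10563712 and 10563715, list Mrgpra genes, which are neither vomeronasal nor taste receptors. No other probe set of the 57 was called in any comparison. Without Ly6C-high array 2, these 2 were joined by 5 called higher in Ly6C-high cells than in monocytes. The count lower in Ly6C-high cells was 1 without monocyte array 1 or 2, and that in Ly6C-low cells 0 without any 1 Ly6C-low array or monocyte array 1 or 2.

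Ly6C-high array 1 was the highest of the 9 arrays in 384 shared probe sets (33.2%), beside 31.8% of all probe sets. In 10 of the 1158 it stood at least 2 log2 units above every other array, and in 217 of all 34760 probe sets. Of the 10, 3 list Gm21286 / Mup-ps15 / Mup-ps12, pseudogenes of major urinary proteins, where array 1 read 8.26, 8.51 and 8.52 and every other array between 2.83 and 4.75. Probe set 10414909 (Trav3n-3 / Trav3-3) read 9.26 on that array and between 3.19 and 3.65 elsewhere, and 10445178 (Olfr134 / Olfr133 / Olfr135) 6.86 against 3.22 to 3.48. None of these 5 was called in any comparison.

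**Figure D4:**
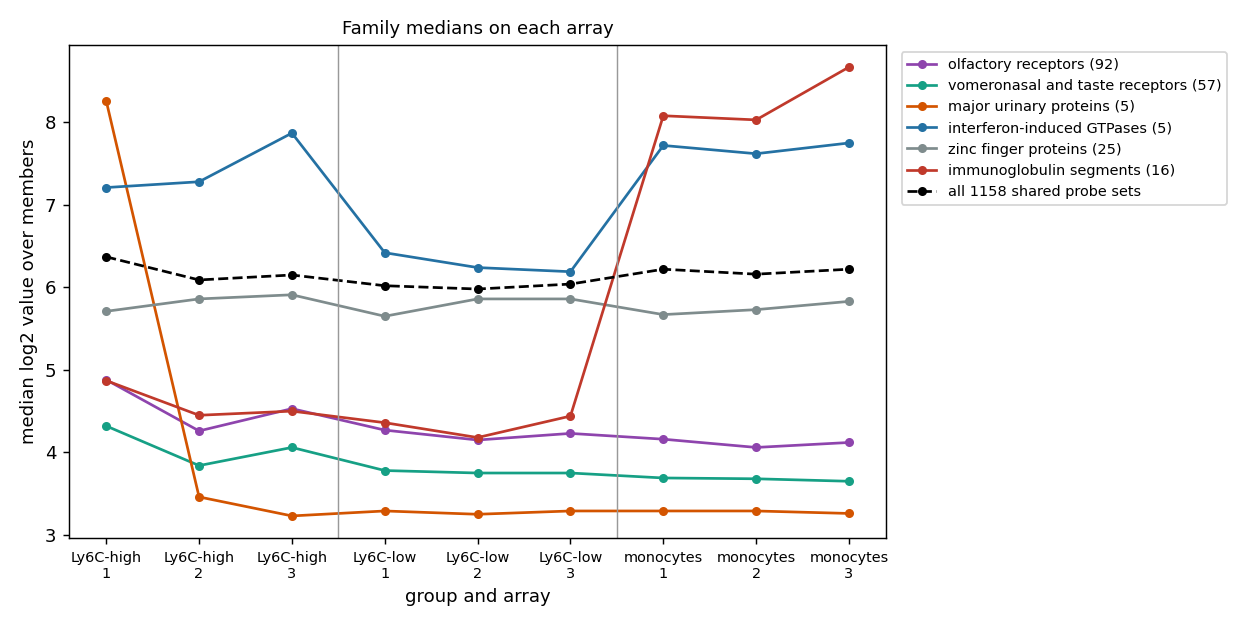
Median deposited log2 value over the probe sets of a family (y axis) on each of the 9 arrays (x axis); the legend gives the number of probe sets, the dashed line is the median over all 1158, and lines join arrays only to aid the eye. Major urinary protein probe sets read 8.26 on Ly6C-high array 1 and at most 3.46 elsewhere, and interferon-induced GTPases were lowest on the 3 Ly6C-low arrays.

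Histone genes, whose clustered copies are made in dividing cells, varied within groups. Probe set 10403978, of the H2B cluster with H4bc24, read 8.27, 8.96 and 2.79 in Ly6C-high, 3.78, 4.60 and 3.51 in Ly6C-low and 10.24, 9.35 and 7.65 in monocyte arrays. Ly6C-high array 3 lay below every other array and the other 2 near the monocytes. No difference was called (adjusted p = 0.32, 0.285 and 0.0789). Of 22 histone probe sets, 1 (4.55%) was called, higher in Ly6C-high than in Ly6C-low cells, beside 3.15% of all probe sets. The count was 0 without Ly6C-low array 1 or 2 and 5 without Ly6C-high array 3. Cell division marker means on the Ly6C-high arrays were 6.38, 7.94 and 6.02, and their part was not tested.

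Other families held few calls. Of 4 probe sets of translation factors, which start protein synthesis, 2 were lower in Ly6C-high cells than in monocytes: 10539177 (Eif4a3l1 / Eif4a3), by -1.88 (adjusted p = 0.018), and 10458680 (Eif3j2 / Eif3j1), by -1.25 (adjusted p = 0.0209); without any 1 monocyte array neither was called, and with quantile normalisation or cyclic loess the second was not. The share of all probe sets lower there was 9.93%. Of 16 defensin and keratin-associated probe sets, 3 (18.8%) were higher in that comparison, beside 4.45% of all probe sets. Among them was 10440717 (Gm10228 / Gm10229 / 1110025L11Rik / Krtap6-5 / Krtap6-1), by 1.04 (adjusted p = 0.0131). None of the 16 was called without monocyte array 3, and the count was 1 without Ly6C-high array 1, any 1 Ly6C-low array or monocyte array 1 or 2. Probe set 10439398 (Ndufb4b / Ndufb4), of respiratory complex I, was higher in Ly6C-high than in Ly6C-low cells by 1.68 ± 0.44 (adjusted p = 0.0474), a call kept without Ly6C-high array 3 and lost without any other 1 array. No probe set was called among 5 of serpins, 3 of interferon ligands, 2 of solute carriers or 2 of pregnancy and prolactin genes.

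A shared probe set can be set beside the probe sets that list 1 of its genes alone, by the difference each gives and not by level. There were 1371 such pairs, of 716 shared probe sets and 590 genes. Both were called in 10 pairs between the brain groups, 53 between Ly6C-high cells and monocytes and 33 between Ly6C-low cells and monocytes, and always in the same direction. The shared probe set alone was called in 41, 116 and 92 pairs and the gene's own alone in 50, 84 and 29. Across pairs, which repeat genes and share arrays, Pearson's r of the differences was 0.24, 0.45 and 0.45.

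**Figure D5:**
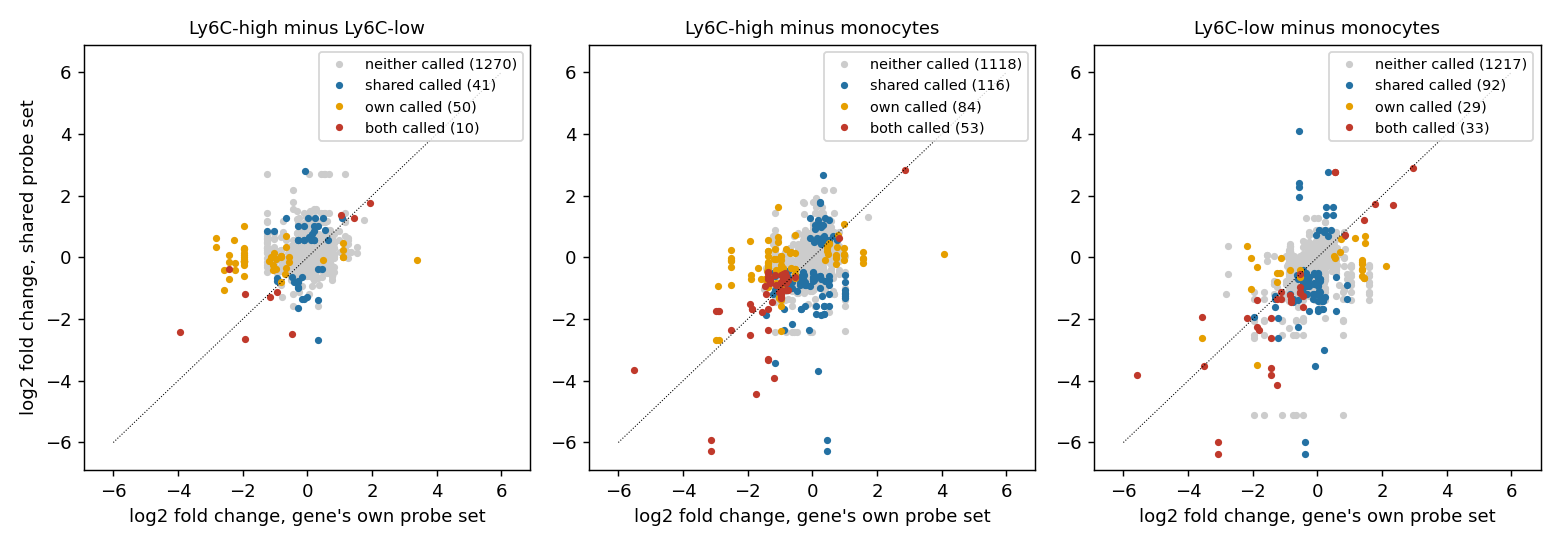
Log2 fold change of a shared probe set (y axis) against that of the probe set listing 1 of its genes alone (x axis), for 1371 pairs in each of the 3 comparisons; colours give which of the 2 was called, with counts, and the dotted line marks equal values. No pair was called in opposite directions.

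For 322 shared probe sets, 2 or more genes had their own probe set. The shared difference lay between the extremes of those genes in 147, 147 and 121 of them in the 3 comparisons. Where several probe sets listed exactly the same symbols (205 lists, 645 probe sets, up to 19 a list), 33, 59 and 48 lists held a call, and all probe sets were called alike in 7, 16 and 15 of them. In no list were probe sets called in both directions.

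By the place of the listed genes, shared probe sets with genes on several chromosomes (411) were called lower than monocytes in 92 cases in Ly6C-high and 58 in Ly6C-low cells, and higher in 1 and 6. Their called share was 22.6% and 15.6%, beside 11.2% and 10.9% of the 632 with separate genes on 1 chromosome, 15.8% and 11.4% of the 114 with overlapping genes and 14.4% and 9.56% of all probe sets. Between the brain groups the shares were 6.57%, 6.01% and 8.77%, beside 10.6% of all. Whether these shares differ was not tested.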

How the data were processed

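Affymetrix arrays of 9 RNA samples were read from the deposited series value table, whose log2 values the authors made with RMA and the R package oligo, per the submitters' processing notes; their versions, settings and genome build: not given in the sources used here. Symbols came from the platform annotation. Values were used as deposited and tested in R 4.3.3 by limma 3.58.1 (lmFit, then eBayes; all 3 groups in 1 fit, Benjamini-Hochberg over 34760 probe sets); simulated data served as a check of the code. With 3 arrays a group, their number limits the precision. The named probe sets were, per comparison, the 8 highest and 8 lowest called ones that did not overlap, had a higher-group mean of at least the median brightness and listed a named gene, plus up to 4 a family. A probe set dim in the lower group could thus be named through the higher group alone. Others, such as those naming Sp100, Sp110, Tpm4, Pnp, Ftl1, Rpl35 or predicted genes alone, were chosen after their values were seen. Families needed 2 matching symbols unless said otherwise. Members and lists were chosen with earlier results of these data known. Alternatives changed scaling, filter, samples, weights and blocks.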

Additional observations from a re-analysis of the deposited data

How the results depend on the processing

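The count of shared probe sets called moved by over 1.5 times in these settings. Between the brain groups it was 75, and 24 with only the 2 groups fitted, 37 over members with no predicted symbol, and 31 to 114 with 1 array left out (31 and 36 without Ly6C-low array 3 and 2, 47, 47 and 49 without monocyte array 1, 2 and 3, 114 without Ly6C-high array 2). Between Ly6C-high cells and monocytes it was 182, and 111 with quantile normalisation, 112 with cyclic loess, 105 with 2 groups, 91 with no predicted symbol, 112 with equal symbol lists averaged, and 75 to 321 with 1 array left out (75, 77 and 83 without monocyte array 1, 2 and 3, 321 without Ly6C-high array 2). Between Ly6C-low cells and monocytes it was 147, and 261 with 2 groups, 344 with array weights, 70 with no predicted symbol, and 86 to 214 with 1 array left out (86 without monocyte array 1, 92 without monocyte array 2, 92 without Ly6C-low array 3; the 214, without Ly6C-high array 1, is within 1.5 times). The last settings test fewer members or samples by construction; for the others the cause was not tested. With Ly6C-high array 2 and Ly6C-low array 3 both left out the counts were 50, 232 and 116. No shared probe set called in both the deposited scaling and an alternative changed direction. Of the named calls, 12 of 23, 23 of 46 and 30 of 45 held in all alternatives run, and 1 reversed in sign: probe set 10571653 (Actg1 / Actb) between Ly6C-high cells and monocytes, -0.56 as deposited and 0.02 with cyclic loess. Between the brain groups, arrays with the same title number had r of deviations of 0.213, 0.121 and 0.026, and those with other numbers -0.197 to 0.119. Brain and monocyte arrays with the same title number had -0.026 to 0.082. Whether title numbers pair the samples was not tested. A replicate block on them gave 56, 178 and 137 calls. A random block on the number in the description gave 103, 188 and 154. Ly6C-high array 1 shares that number with Ly6C-low array 1 (r = 0.213), and Ly6C-high array 2 with Ly6C-low array 3 (r = 0.119). The labels do not say what that number marks. Family counts under alternatives, and families matched by 1 symbol, were added after the data were seen.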
